A study of Mus musculus with 24 samples.

Results

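The 33 genes described here are markers and effectors of macrophages and monocytes, chosen by name from a written list, with no threshold on their values in these samples. All 33 were found by identifier among the 54532 genes of the count tables. They were followed in RNA sequencing libraries of the left gastrocnemius muscle, a large calf muscle, of wild-type C57/BL6 mice. There were 24 libraries in 6 groups of 4, made from females and males under 3 conditions, all labelled 24 h. Controls were sedentary and received a pair of 20 µl saline injections of pH 7.2 into the muscle, 5 days apart. Sedentary pain mice received acidic injections of pH 5.0 in their place, with 6 min of electrically stimulated contraction directly before the second injection. Active pain mice had running wheels for 8 weeks and then went through the same pain procedure. No group ran without the pain procedure and no control had stimulated contractions, so acid and contraction cannot be told apart, and running was compared only within the pain procedure. The labels used here give no age, and they do not state that each library came from its own mouse, so the p-values measure the spread between these libraries. Where a single muscle is named below, a single library is meant. Total counts per library lay between 17612139 and 34039699.

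Macrophages are the tissue-resident and monocyte-derived phagocytes of skeletal muscle. They depend on the growth factor CSF1 and its receptor, and the transcription factor PU.1 is required to form and maintain the lineage. After muscle injury or irritation, blood monocytes enter the tissue and become macrophages that take up debris through scavenger receptors and sense damaged cells and microbes through C-type lectins. Many of those lectins and receptors signal through adaptor proteins that carry an ITAM, a tyrosine motif that recruits the kinase SYK.

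PU.1, C/EBP and AP-1 factors bind near the start sites of many macrophage genes, so the promoter windows of the members were read first. RefSeq windows on GRCm38.p6, from 250 bases before to 50 bases after a start site, existed for 24 of the 33 genes, 27 windows in all. Itgam is shown because it is a standard marker of the lineage, Marco and Clec4e because they had the largest changes in female sedentary pain, and Clec4d because it is the neighbour of Clec4e, 6.5 kb away. Capitals mark the PU.1 core GAGGAA, or TTCCTC where it lies on the other strand, and each sequence runs 5′ to 3′ along the gene. The Itgam window is chr7:128062390-128062689 (plus strand), the Clec4d window is chr6:123261857-123262156 (plus strand), the Clec4e window is chr6:123289822-123290121 (minus strand), and the Marco window is chr1:120504975-120505274 (minus strand).
Itgam: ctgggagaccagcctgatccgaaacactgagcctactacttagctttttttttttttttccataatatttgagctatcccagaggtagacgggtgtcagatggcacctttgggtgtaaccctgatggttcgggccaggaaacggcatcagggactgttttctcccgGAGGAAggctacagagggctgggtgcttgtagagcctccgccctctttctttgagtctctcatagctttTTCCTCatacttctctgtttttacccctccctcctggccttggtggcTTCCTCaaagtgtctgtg
Clec4d: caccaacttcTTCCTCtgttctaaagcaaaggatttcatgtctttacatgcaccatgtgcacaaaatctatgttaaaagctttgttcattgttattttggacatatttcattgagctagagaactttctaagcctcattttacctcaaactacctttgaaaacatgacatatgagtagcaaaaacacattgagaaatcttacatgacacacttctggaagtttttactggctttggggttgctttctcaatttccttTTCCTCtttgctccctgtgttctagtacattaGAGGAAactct
Clec4e: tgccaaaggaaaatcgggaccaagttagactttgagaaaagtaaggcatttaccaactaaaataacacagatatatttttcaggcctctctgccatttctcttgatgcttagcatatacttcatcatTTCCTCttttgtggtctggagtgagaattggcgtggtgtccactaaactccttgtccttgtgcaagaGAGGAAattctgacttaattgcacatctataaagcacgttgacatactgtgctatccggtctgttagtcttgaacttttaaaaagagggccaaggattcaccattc
Marco: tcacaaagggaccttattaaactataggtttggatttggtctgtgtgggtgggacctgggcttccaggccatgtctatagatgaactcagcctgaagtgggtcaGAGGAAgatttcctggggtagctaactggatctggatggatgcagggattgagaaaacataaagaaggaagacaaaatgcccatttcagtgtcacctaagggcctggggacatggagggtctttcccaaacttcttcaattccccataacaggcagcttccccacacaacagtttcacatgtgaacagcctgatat

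The Itgam and Clec4d windows each held 3 copies of the PU.1 core, the Clec4e window held 2 and the Marco window held 1. On either strand, GAGGAA was present in 16 of the 27 windows (59.3%), belonging to 15 of the 24 genes, against 28.3% of all 32851 RefSeq windows of the same length. The C/EBP pattern TTNCNNAA was in 74.1% of the members' windows and 40.7% of all windows. The AP-1 pattern TGANTCA was in 22.2% and 7.81%, and the NF-kB pattern, GGGA and CC with 4 bases between them, in 22.2% and 20.7%. All 4 patterns were searched on both strands, and matches to different patterns can overlap. The Csf1 window held 3 NF-kB matches, of which 2 overlap in a stretch that matches on either strand, and no match to the other patterns, and the Lgals3 window held 2 NF-kB matches and none of the others. No pattern was matched in the Cx3cr1 window. A match says only that these letters are present in the window.

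In sedentary females the pain procedure was accompanied by higher levels of every member that could be tested. Of the 33 genes, 32 passed the filter on low counts in each fit, and the exception was Fcnb. All 32 rose in female sedentary pain against female controls (adjusted p under 0.05, edgeR quasi-likelihood F test with Benjamini-Hochberg adjustment over all 14511 genes tested), where 19.6% of all genes tested rose and 33.5% changed in either direction. The members' log2 fold changes ran from 1.41 to 8.94 with a median of 4.71, and the median of all genes was -0.02. Clec4e, Clec4n, Marco and Lilrb4a had fewer than 10 counts in every female control and passed the filter through the pain libraries. Itgax, Cx3cr1, Trem2, Clec7a, Clec4d, Msr1, Cd86, Cd84 and Plac8 had at most 10 counts in their lowest female control. They too passed with the help of pain libraries. The rise of all these members is no independent support. The remaining members also rose, and without the filter 31 of the 32 did. In 31 of the 32, all 4 sedentary pain libraries lay above all 4 controls, which 15.3% of all genes did; Nos2 was the exception. Among replicates 1 and 2 alone, 19 of the 32 members rose beside 1.56% of all genes, and with 1 estimated surrogate variable in the model 7 did beside 0.648%. The members fell in female active pain against female sedentary pain in 23 of 32 cases, where 9.41% of all genes fell and 11.9% changed, and their median log2 difference was -2.69. Only 3 of the 23, Csf1r, Ms4a7 and Ms4a6c, had all active pain libraries below all sedentary pain libraries, and 6.37% of all genes did. The calls in that comparison depended on single libraries, while the size of the difference mostly did not. No member was called, and at most 3 genes of the whole table were, when female active pain replicate 1, 2 or 4, or female sedentary pain replicate 3 or 4, was left out, yet the members' median stayed between -2.10 and -2.71. Calls were also lost without the low-count filter (median -2.62), when only the compared groups were fitted (-2.69) and among replicates 1 and 2 alone (-2.30), and with 1 surrogate variable the median shrank to -0.51. Of the 23 members called, Trem2 lost its call in 16 of 23 alternatives, Cx3cr1 and Marco in 15, Cd53 in 13 and the others except Nos2 in 9 or 10. Nos2 lost its call with its sign kept in 15, and in 1 more it changed sign and was not called.

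In males, and in active females against their controls, 31 of the 32 members had positive differences, with Nos2 the exception in each comparison, and none was called by edgeR. In male sedentary pain 0 of the 32 members rose by edgeR (0% of all 14404 genes tested), with a smallest adjusted p of 0.296; 30 members had an unadjusted p under 0.05, as had 8.84% of all genes, and DESeq2 called 16, beside 1.9% of all genes. The male median log2 difference was 2.99, and 19 members had no overlap with the controls, against 3.95% of all genes. Without male sedentary pain replicate 1 that median was 1.71. In female active pain 0 members rose (0% of all genes), 25 had an unadjusted p under 0.05 against 7.03% of all genes, DESeq2 called 8 beside 0.908% of all genes, 15 had no overlap with the controls against 3.6%, and the median was 1.98. In male active pain 0 members rose (0% of all genes), 25 had an unadjusted p under 0.05 against 7.25%, DESeq2 called 8 beside 0.892%, 24 had no overlap against 6.34%, and the median was 2.47. Male active and sedentary pain did not differ for any member by either tool (0% of all genes by edgeR), no member had an unadjusted p under 0.05 where 0.84% of all genes did, and the median was -0.53. The comparisons with controls of the same sex share those controls. In whole muscle, fewer cells of a type and less RNA per cell cannot be told apart.

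**Figure D1:**
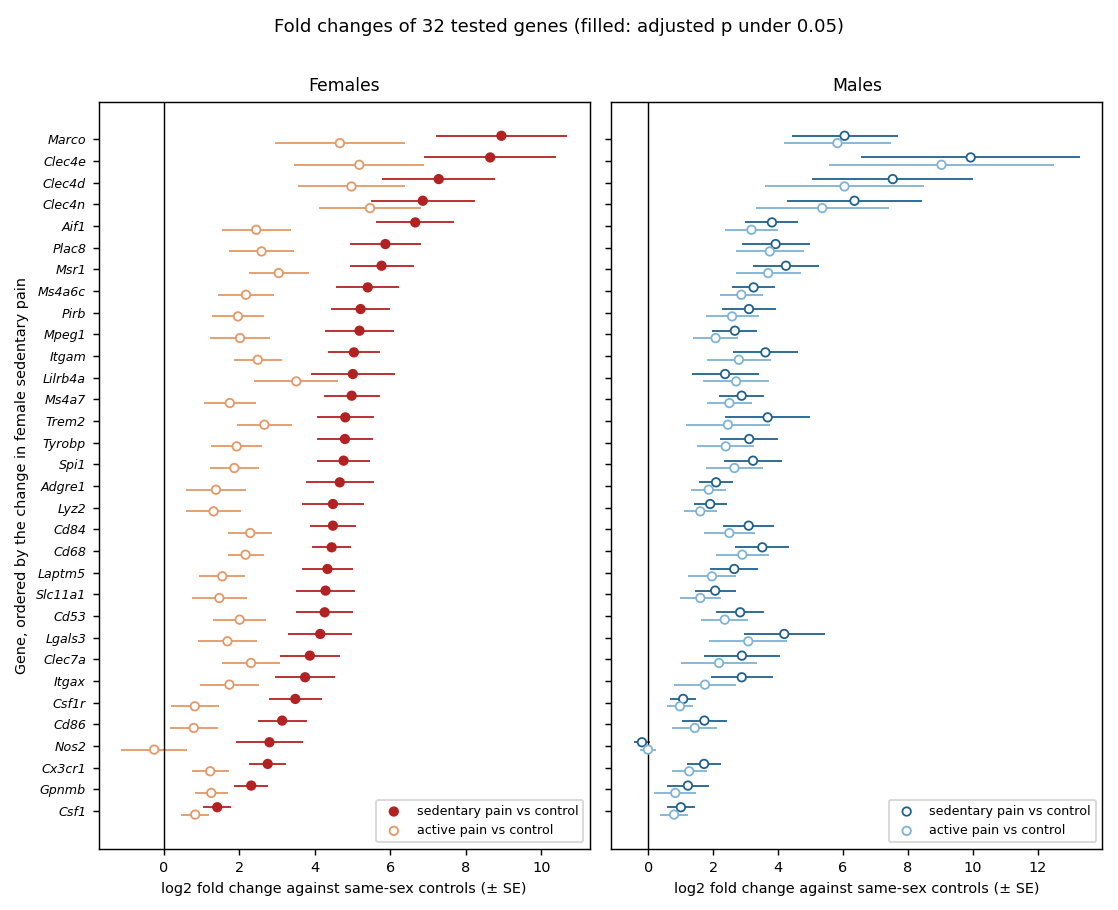
Log2 fold change against same-sex controls (x axis, bars are SE) of the 32 tested genes (y axis, ordered by the change in female sedentary pain), with females on the left and males on the right; filled points have an adjusted p under 0.05. Every filled point belongs to female sedentary pain, where changes run from 1.41 for Csf1 to 8.94 for Marco; the male values of Clec4e and Marco depend on the prior count because the male controls held 0 counts of the former and at most 1 of the latter.

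In female sedentary pain the growth factor axis moved unequally, with the smallest change in the ligand. Csf1 encodes macrophage colony-stimulating factor, which fibroblasts and endothelial cells also make. In females Csf1 was at 7.67, 9.80, 10.1 and 11.7 CPM (counts per 1000000 counts of the scaled library) in controls 1 to 4, 14.9, 41.6, 25.6 and 24.3 with sedentary pain and 11.4, 10.4, 32.5 and 15.6 with active pain. In males it was at 8.90, 10.1, 11.8 and 10.5 in the controls, 43.8, 12.5, 10.7 and 14.7 with sedentary pain and 14.4, 30.4, 13.6 and 13.1 with active pain. Csf1 rose 2.66-fold in female sedentary pain, by 1.41 ± 0.37 on the log2 scale (SE, n = 4 against 4, adjusted p = 0.0171 by edgeR), the smallest change of the 32 members, and 1 library of each other pain group stood above the rest. Csf1r encodes its receptor, a tyrosine kinase of the macrophage lineage. Csf1r was at 11.4, 12.3, 20.5 and 21.7 CPM in female controls, 33.9, 41.9, 278 and 392 with sedentary pain and 26.7, 22.8, 33.8 and 33.03 with active pain. In males Csf1r was at 9.14, 16.99, 21.8 and 13.8 in the controls, 52.2, 15.3, 18.7 and 42.1 with sedentary pain and 20.7, 40.1, 24.7 and 35.6 with active pain. Replicates 3 and 4 of female sedentary pain held the high values; the gene rose by 3.48 ± 0.70 (adjusted p = 0.0054) and was 6.34-fold lower in active than in sedentary females (adjusted p = 0.0333). Spi1 encodes PU.1. Its level was 1.17, 1.39, 1.68 and 2.72 CPM in female controls, 8.09, 35.8, 60.4 and 89.2 with sedentary pain and 2.74, 4.55, 12.6 and 5.68 with active pain. Male levels were 0.614, 1.33, 1.83 and 0.849 in the controls, 31.6, 2.21, 3.80 and 5.24 with sedentary pain and 4.91, 16.8, 3.25 and 4.19 with active pain. Spi1 rose 27.1-fold in female sedentary pain (adjusted p = 0.0026), fell 7.44-fold from sedentary to active females (adjusted p = 0.0328), and had no overlap with same-sex controls in any pain group.

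All 12 identity and leukocyte surface genes rose in female sedentary pain, and 11 of the 12 fell in active against sedentary females. Adgre1 encodes F4/80, the classical surface marker of mouse macrophages. Adgre1 was at 2.99, 3.28, 3.98 and 6.29 CPM in female controls, 17.5, 9.86, 196 and 202 with sedentary pain and 6.27, 10.1, 10.2 and 16.4 with active pain. The male values were 1.19, 3.71, 3.93 and 3.24 in the controls, 12.4, 4.68, 9.46 and 24.1 with sedentary pain and 7.97, 9.36, 6.57 and 20.0 with active pain. Its rise of 4.66 ± 0.90 in female sedentary pain (adjusted p = 0.00458) was largest in replicates 3 and 4, and replicates 1 and 2 were lower but still above every control. Cd68 encodes a heavily glycosylated lysosomal protein of phagocytes. Cd68 was at 3.51, 2.57, 4.84 and 5.13 CPM in female controls, 30.3, 77.5, 103 and 145 with sedentary pain and 10.2, 11.2, 31.0 and 19.7 with active pain. In males Cd68 was at 1.77, 3.11, 3.15 and 2.20 in the controls, 84.9, 7.53, 8.87 and 14.1 with sedentary pain and 14.4, 42.1, 9.81 and 9.93 with active pain. All pain groups lay clear of their controls, and the rise in female sedentary pain (4.44 ± 0.52, adjusted p = 0.00225) had the smallest p of the members and was kept in all 23 alternative analyses.

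Itgam encodes CD11b, an integrin chain that neutrophils share with macrophages and monocytes. Itgam was at 1.21, 0.505, 1.21 and 1.68 CPM in female controls, 10.96, 28.7, 44.8 and 70.6 with sedentary pain and 2.64, 4.24, 14.0 and 5.26 with active pain. In males Itgam was at 0.614, 0.874, 1.22 and 0.660 in the controls, 32.6, 1.77, 2.49 and 3.89 with sedentary pain and 3.36, 14.6, 2.33 and 3.09 with active pain. It rose by 5.03 ± 0.69 in female sedentary pain (adjusted p = 0.0026) in all 23 alternatives, fell by 2.55 ± 0.60 from sedentary to active females (adjusted p = 0.0328), and was highest in replicate 1 of male sedentary pain and replicate 2 of male active pain. Lyz2 encodes lysozyme M, made by macrophages and neutrophils. Lyz2 was at 36.1, 43.1, 67.2 and 97.2 CPM in female controls, 213, 249, 2268 and 2778 with sedentary pain and 93.4, 125, 168 and 220.3 with active pain. The corresponding male values of Lyz2 were 29.5, 52.1, 57.9 and 46.4, 315, 52.5, 96.6 and 223 and 102, 198, 80.0 and 183. Per kilobase of exon it was the most abundant member in every group, with control means of 46.3 CPM per kb in females and 35.3 in males, followed by Tyrobp at 5.89 and 4.18. Lyz2 rose by 4.48 ± 0.83 in female sedentary pain (adjusted p = 0.00403).

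Aif1 encodes IBA1, a cytoskeletal protein used to stain macrophages and microglia. Aif1 was at 1.04, 0.505, 0.781 and 1.44 CPM in female controls, 7.75, 30.00, 89.3 and 265 with sedentary pain and 2.84, 2.65, 9.43 and 5.86 with active pain. In males Aif1 was at 0.443, 0.280, 0.882 and 0.377 in the controls, 18.6, 1.64, 2.96 and 4.47 with sedentary pain and 4.69, 8.76, 1.85 and 2.81 with active pain. The rise in female sedentary pain was 101-fold (6.66 ± 1.04, adjusted p = 0.0026), the largest among the identity genes, and the active muscles were 18.6-fold lower than the sedentary ones (adjusted p = 0.0328). Cx3cr1, the fractalkine receptor of patrolling monocytes and resident macrophages, changed least in this group. Its values were 0.347, 0.252, 0.390 and 0.428 CPM in female controls, 1.06, 1.93, 3.17 and 3.63 with sedentary pain and 0.441, 0.529, 1.62 and 0.760 with active pain. Male Cx3cr1 was at 0.273, 0.559, 0.237 and 0.283 in the controls, 1.33, 0.502, 0.760 and 1.82 with sedentary pain and 0.732, 1.60, 0.376 and 0.554 with active pain. It rose by 2.75 ± 0.49 (adjusted p = 0.00338), and the male groups overlapped their controls. The other 6 genes of this group were Itgax (CD11c), Mpeg1 (perforin-2), Laptm5, Cd53, Ms4a7 and Ms4a6c, whose reads may be shared with close relatives in the Ms4a cluster. Their rises in female sedentary pain lay between 3.74 ± 0.80 for Itgax and 5.40 ± 0.83 for Ms4a6c. Mpeg1 went from 5.07 ± 4.06 CPM (SD, n = 4) in female controls to 188 ± 166 in sedentary and 20.7 ± 14.0 with active pain, and Laptm5 from 8.84 ± 3.68 to 181 ± 154 and 25.9 ± 14.1. Itgax was the identity gene that did not pass the test between active and sedentary females (difference -2.01 ± 0.72, adjusted p = 0.082).

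**Figure D2:**
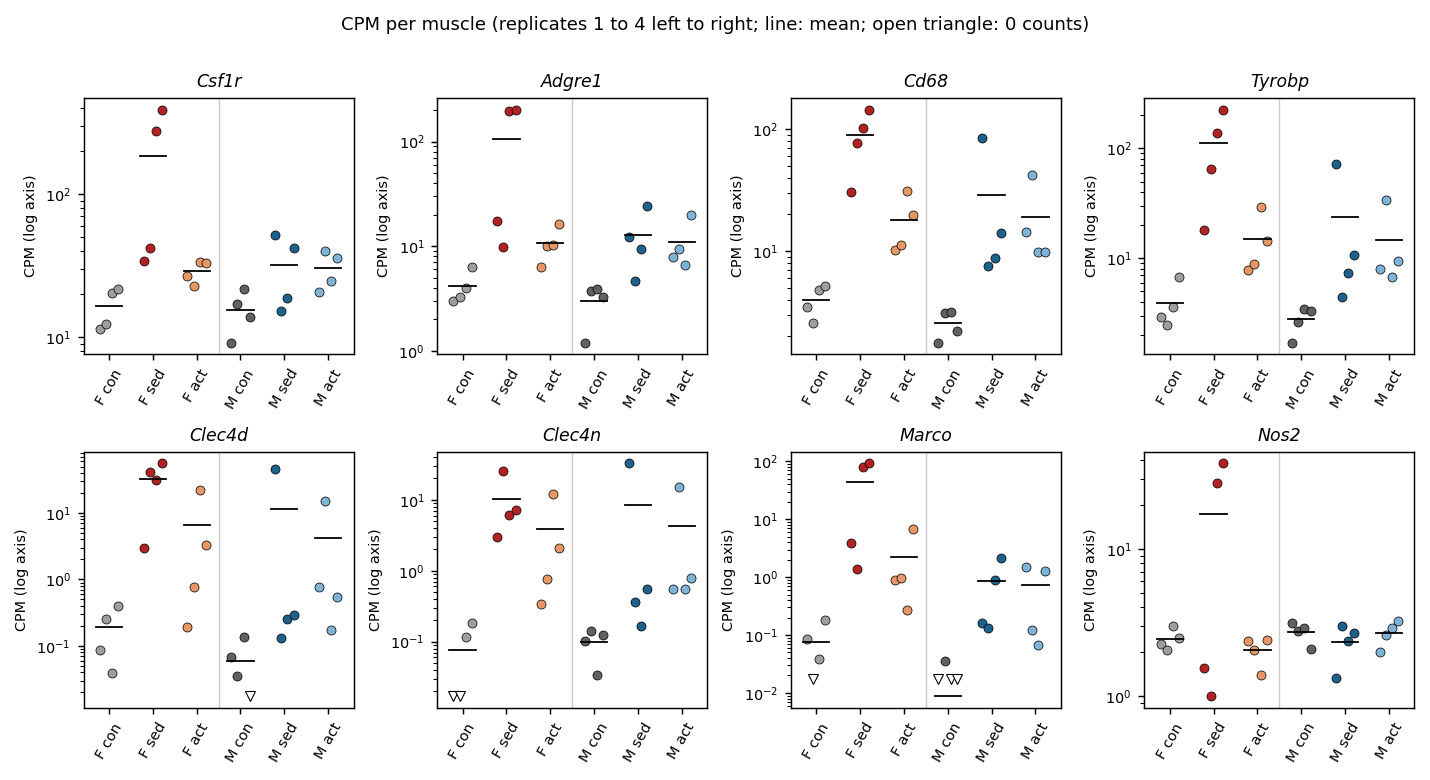
CPM (log axis) of 8 members in each of the 24 muscles, 4 points per group with replicates 1 to 4 from left to right, a line at the group mean and an open triangle for 0 counts. Csf1r, Adgre1, Marco and Nos2 are high in female sedentary pain muscles 3 and 4, while Clec4n is highest in the second female and the first male sedentary pain muscle (25.3 and 32.8 CPM).

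The 5 genes of phagocyte and lysosome activation all rose in female sedentary pain, and Tyrobp, Trem2 and Slc11a1 fell in active against sedentary females. Tyrobp encodes DAP12, an ITAM adaptor through which TREM2 signals. Tyrobp was at 2.90, 2.48, 3.59 and 6.75 CPM in female controls, 17.9, 64.8, 138 and 226 with sedentary pain and 7.89, 8.79, 29.1 and 14.4 with active pain. Male Tyrobp was at 1.71, 2.66, 3.46 and 3.33 in the controls, 72.7, 4.42, 7.35 and 10.8 with sedentary pain and 7.97, 34.2, 6.74 and 9.53 with active pain. The change in female sedentary pain was 4.80 ± 0.75 (adjusted p = 0.0026), and no pain group overlapped its controls. Trem2 encodes a lipid-sensing receptor of macrophages. Trem2 was at 0.130, 0.378, 0.273 and 0.458 CPM in female controls, 3.33, 8.70, 5.44 and 18.8 with sedentary pain and 0.784, 0.635, 4.08 and 2.55 with active pain. In males Trem2 was at 0.102, 0.350, 0.543 and 0.220 in the controls, 14.3, 0.335, 0.380 and 0.546 with sedentary pain and 1.21, 4.32, 0.581 and 0.633 with active pain. Trem2 rose by 4.80 ± 0.76 in female sedentary pain (adjusted p = 0.0026), and in male sedentary pain the first muscle stood alone at 14.3 CPM with the other 3 at 0.335 to 0.546.

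Gpnmb encodes a membrane glycoprotein of lipid-laden phagocytes. Gpnmb was at 2.21, 2.44, 4.06 and 4.09 CPM in female controls, 7.98, 14.5, 16.5 and 25.8 with sedentary pain and 3.04, 5.68, 12.4 and 9.39 with active pain. In males Gpnmb was at 1.81, 2.097, 4.04 and 2.01 in the controls, 15.1, 2.04, 1.82 and 4.002 with sedentary pain and 3.75, 8.16, 2.53 and 3.28 with active pain. It rose 4.96-fold in female sedentary pain (adjusted p = 0.00473), the second smallest change of all members, and the groups overlapped in the other comparisons. Lgals3 encodes galectin-3, a lectin of activated phagocytes that other cells also make. Lgals3 was at 4.29, 2.69, 18.7 and 13.5 CPM in female controls, 43.2, 185, 151 and 326 with sedentary pain and 11.95, 11.4, 72.3 and 30.8 with active pain. In males Lgals3 was at 2.25, 3.29, 4.92 and 1.64 in the controls, 193, 4.65, 6.29 and 13.5 with sedentary pain and 15.5, 66.8, 7.39 and 12.6 with active pain. Its log2 rise was 4.14 ± 0.85 in female sedentary pain (adjusted p = 0.00585), and the male sedentary value of 4.19 ± 1.25 had an adjusted p of 0.318 with 193 CPM in the first library and at most 13.5 in the others. Slc11a1, the phagosomal metal transporter NRAMP1, went from 2.44 ± 0.804 CPM (SD, n = 4) in female controls to 48.4 ± 41.7 in sedentary and 6.76 ± 4.67 with active pain.

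The C-type lectins that sense fungal, mycobacterial and cell-death ligands had some of the largest folds, from control levels near 0. Clec4n, Clec4d and Clec4e encode Dectin-2, MCL and Mincle and lie in that order on chromosome 6 (123229843 to 123289870 on GRCm38, GENCODE M21), 15.1 and 6.5 kb apart. Clec4d was at 0.0866, 0.252, 0.0390 and 0.397 CPM in female controls, 3.02, 41.2, 31.3 and 56.1 with sedentary pain and 0.196, 0.777, 21.8 and 3.31 with active pain. In males Clec4d was at 0.0682, 0.0350, 0.136 and 0 in the controls, 45.7, 0.134, 0.253 and 0.291 with sedentary pain and 0.775, 15.3, 0.171 and 0.554 with active pain. Clec4d rose by 7.28 ± 1.498 in female sedentary pain (adjusted p = 0.00597), and in each other pain group 1 library was far above the others. Clec4e was at 0, 0, 0.0390 and 0.214 CPM in female controls, 1.32, 13.7, 54.5 and 57.9 with sedentary pain and 0.0980, 0.671, 9.78 and 0.790 with active pain. All 4 male controls had 0 Clec4e counts, and male values were 17.1, 0.100, 0.338 and 0.182 with sedentary pain and 1.16, 7.96, 0.103 and 0.435 with active pain. Clec4e rose by 8.65 ± 1.75 in female sedentary pain (adjusted p = 0.00554); against a floor of 3 counts per library, the male means were at least 42.3-fold higher in sedentary and at least 23.0-fold higher in active pain, neither called. One library carried each bound, which without it would be 1.97 and 5.40. Setting male Clec4e to these bounds left the members' median at 2.99 and 2.47.

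Clec4n was at 0, 0, 0.117 and 0.183 CPM in female controls, 3.02, 25.3, 6.15 and 7.13 with sedentary pain and 0.343, 0.777, 12.2 and 2.07 with active pain. Male Clec4n was at 0.102, 0.140, 0.0339 and 0.126 in the controls, 32.8, 0.368, 0.169 and 0.546 with sedentary pain and 0.560, 15.4, 0.547 and 0.791 with active pain. Clec4n rose by 6.86 ± 1.37 in female sedentary pain (adjusted p = 0.00529), and all pain libraries of both sexes exceeded all controls of their sex. Clec7a encodes Dectin-1, the beta-glucan receptor, and is annotated in GENCODE M21 as a polymorphic pseudogene. Clec7a was at 0.303, 0.294, 0.820 and 1.22 CPM in female controls, 3.06, 13.5, 9.94 and 13.7 with sedentary pain and 1.13, 1.200, 9.16 and 1.94 with active pain. In males Clec7a was at 0.341, 0.559, 0.984 and 0.818 in the controls, 16.99, 0.602, 1.18 and 1.09 with sedentary pain and 1.16, 9.16, 0.513 and 1.54 with active pain. Its rise in female sedentary pain was 3.87 ± 0.80 (adjusted p = 0.00614). None of the 4 tested lectins passed the test between active and sedentary females, where the log2 differences were -3.47 ± 1.22 for Clec4e (adjusted p = 0.0789), -2.31 ± 1.10 for Clec4d (0.168), -1.56 ± 0.71 for Clec7a (0.153) and -1.40 ± 0.96 for Clec4n (0.321). Fcnb, the ficolin of marrow myeloid cells, had at most 3 counts in any library and 0 in all males. In females its values were 0, 0, 0 and 0.0305 CPM in controls, 0, 0.0584, 0.0324 and 0 with sedentary pain and 0, 0.106, 0 and 0 with active pain, so no level above the floor was detectable at this depth.

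Both scavenger receptors rose in female sedentary pain and fell from sedentary to active females, and Marco had the largest fitted change of all members, from female controls with 0 to 6 counts each, so its size is imprecise. Msr1 encodes scavenger receptor A, which takes up modified lipoproteins and debris. Msr1 was at 0.130, 0.463, 0.624 and 0.916 CPM in female controls, 6.73, 22.9, 40.9 and 51.5 with sedentary pain and 1.08, 3.14, 10.3 and 3.65 with active pain. In males Msr1 was at 0.307, 0.664, 0.339 and 0.440 in the controls, 25.7, 2.11, 2.32 and 2.80 with sedentary pain and 3.19, 14.4, 2.12 and 3.09 with active pain. Msr1 rose 54.4-fold in female sedentary pain (adjusted p = 0.0026) and no pain library of either sex overlapped the controls of its sex. Marco encodes a collagenous receptor for bacteria and particles, restricted to a few macrophage populations. Marco was at 0.0866, 0, 0.0390 and 0.183 CPM in female controls, 3.93, 1.40, 78.5 and 93.0 with sedentary pain and 0.882, 0.953, 0.269 and 6.65 with active pain. Male Marco was at 0, 0.0350, 0 and 0 in the controls, 0.161, 0.134, 0.887 and 2.18 with sedentary pain and 1.51, 0.120, 0.0684 and 1.27 with active pain. The rise in female sedentary pain was 8.94 ± 1.75 (adjusted p = 0.00488) and the fall to active pain 4.28 ± 1.26 (adjusted p = 0.0479); 2 of the 4 sedentary pain muscles held nearly all of the signal. With a single Marco count in 1 of the 4 male controls, its fitted male value depends on the prior count and is not described.

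Among the receptors that tune leukocyte activation, the costimulatory ligand Cd86, the SLAM receptor Cd84 and the ITIM-bearing inhibitory receptors Lilrb4a and Pirb all rose in female sedentary pain. Pirb rose most, from 2.04 ± 0.984 CPM (SD, n = 4) to 77.6 ± 67.9 (5.21 ± 0.78 on the log2 scale), and its reads may be shared with the near-identical Pira genes. Cd84 went from 0.753 ± 0.255 to 17.3 ± 10.3 and Cd86 from 0.723 ± 0.483 to 6.57 ± 4.51. Cd86, Cd84 and Pirb fell in active against sedentary females, by 2.34 ± 0.62, 2.19 ± 0.54 and 3.25 ± 0.70. Lilrb4a, from a family of close copies, was at 0.112 ± 0.0340, 3.85 ± 1.64 and 1.34 ± 2.03 CPM in female controls, sedentary and active pain, and its last difference did not pass (adjusted p = 0.245).

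Plac8 and Nos2 shared a call in female sedentary pain but not a pattern. Plac8 is abundant in blood monocytes and other leukocytes. Plac8 was at 1.21, 0.378, 1.05 and 2.11 CPM in female controls, 11.8, 55.6, 74.3 and 146 with sedentary pain and 1.91, 3.81, 19.1 and 4.35 with active pain. In males Plac8 was at 0.341, 0.384, 0.475 and 0.346 in the controls, 17.2, 1.30, 2.41 and 2.55 with sedentary pain and 6.16, 12.7, 0.923 and 1.19 with active pain. All 4 female sedentary pain muscles were high, for a rise of 5.87 ± 0.95 (adjusted p = 0.00285). Nos2 encodes inducible nitric oxide synthase, which interferon gamma and microbial products induce in macrophages. Nos2 was at 2.25, 2.06, 3.01 and 2.47 CPM in female controls, 1.55, 0.992, 28.1 and 38.2 with sedentary pain and 2.35, 2.05, 1.39 and 2.40 with active pain. In males Nos2 was at 3.14, 2.76, 2.88 and 2.08 in the controls, 1.33, 2.98, 2.36 and 2.66 with sedentary pain and 1.98, 2.60, 2.91 and 3.24 with active pain. Replicates 1 and 2 of female sedentary pain were below every female control and replicates 3 and 4 above every other library of the study. The fitted rise of 2.80 ± 0.90 (adjusted p = 0.0347 by edgeR) kept its sign but did not pass in 10 of 23 alternatives. In a further 2 it changed sign and was not called, at -0.75 among replicates 1 and 2 alone and -0.39 with 1 surrogate variable.

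**Figure D3:**
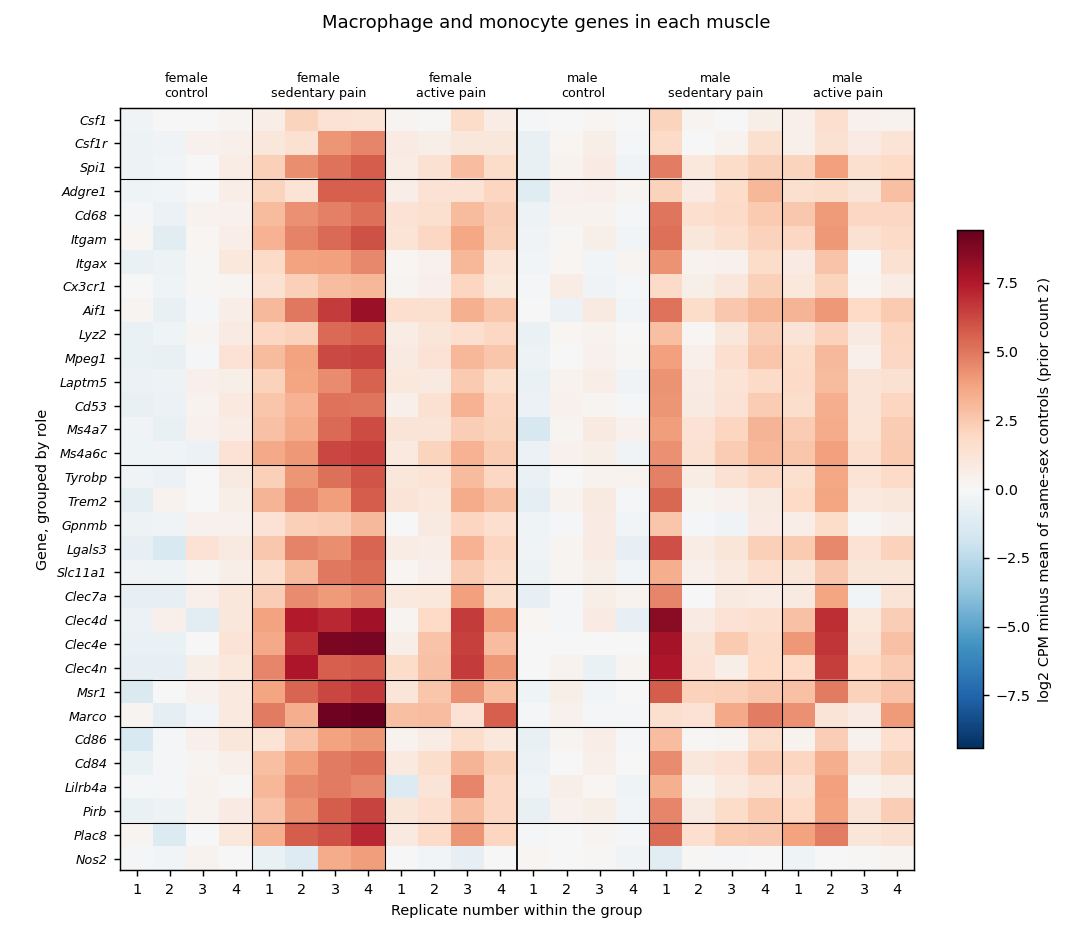
Log2 CPM of 32 members (rows, grouped by role) in each of the 24 muscles (columns, by group and replicate number) minus the mean of same-sex controls, red for higher and blue for lower. Female sedentary pain muscles 3 and 4 are red throughout, with mean differences of 5.09 and 5.60, and male sedentary pain muscle 1 stands at 4.16 beside 0.79 to 2.05 for the other 3.

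The members rose and fell together within a muscle, so a few muscles set the highest values of most genes. The mean log2 difference from the controls over the 32 genes was 2.53, 3.85, 5.09 and 5.60 for replicates 1 to 4 of the female sedentary pain group, and 0.77, 1.32, 3.03 and 2.13 for the female active pain group. The male means were 4.16, 0.79, 1.31 and 2.05 with sedentary pain, and 1.83, 3.40, 1.001 and 1.79 with active pain. Replicate 4 of female sedentary pain was the highest of its group for 28 of the 33 genes, and replicate 3 of female active pain likewise for 28. In males, replicate 1 of sedentary pain was the highest for 28 of the 32 detected genes and replicate 2 of active pain for 29. The controls varied less but in the same manner: replicate 4 of the female controls was the highest for 30 of 33 genes.

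The leading genes were not the same in every high muscle, although at least 31 of the 32 members lay above the control mean in each; the difference in order is a description and was not tested. Marco led the difference from controls in female sedentary pain replicates 3 and 4, with Clec4e next, and these muscles also had the highest Csf1r, Adgre1, Lyz2 and Nos2 of the study. Their Clec4n levels, 6.15 and 7.13 CPM, were lower than the 25.3 CPM of replicate 2. In female sedentary pain replicate 2, male sedentary pain replicate 1, female active pain replicate 3 and male active pain replicate 2, the leading genes were Clec4n, Clec4d and Clec4e, and Marco was at 1.40, 0.161, 0.269 and 0.120 CPM. Clec4n in these 4 muscles was 25.3, 32.8, 12.2 and 15.4 CPM, and Clec4d 41.2, 45.7, 21.8 and 15.3 CPM. Csf1r was among the 3 least changed members in all 4 of them.

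Markers of other leukocytes moved with these differences. The summed level of 12 neutrophil genes in replicates 1 to 4 was 3.99, 2.73, 8.63 and 13.0 CPM in female controls, 18.6, 254, 18.1 and 26.1 with sedentary pain and 9.99, 82.0, 109.6 and 6.90 with active pain. In males the neutrophil sum was 3.58, 4.40, 15.9 and 4.28 in the controls, 286, 5.69, 6.25 and 5.35 with sedentary pain and 13.6, 74.1, 14.0 and 7.83 with active pain. The 4 muscles with the highest Clec4n had neutrophil sums of 254, 286, 110 and 74.1 CPM, and female active pain replicate 2 had a sum of 82.0 CPM with Clec4n at 0.777. Ly6g and Mpo were at 0 in the male controls. The sum of 8 T and NK cell genes was 0.607, 0.0841, 2.22 and 2.11 CPM in female controls, 3.36, 4.73, 52.9 and 93.6 with sedentary pain and 1.08, 1.31, 1.62 and 1.94 with active pain, and at most 2.84 CPM in every male library. The 2 libraries with high T and NK sums were those with high Marco and Nos2. Summed muscle fibre genes in those libraries were 86297 and 76113 CPM, the 2 lowest of the study. The part of other leukocytes in the members' differences was not tested.

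**Figure D4:**
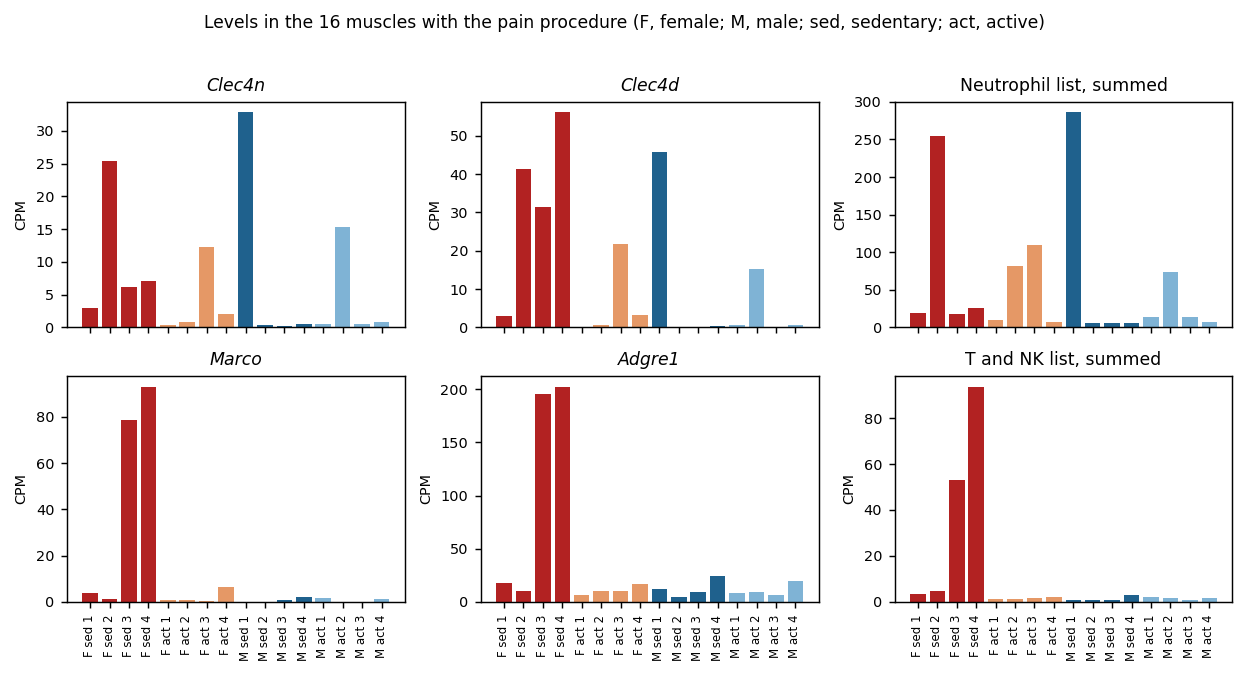
CPM of Clec4n, Clec4d, Marco and Adgre1 and the summed CPM of the neutrophil list and of the T and NK list (y axes) in each of the 16 muscles that had the pain procedure (x axis; bars start at 0). The neutrophil sum and Clec4n are both high in the second female and first male sedentary pain muscles (254 and 286 CPM summed), and the T and NK sum follows Marco and Adgre1 in female sedentary pain muscles 3 and 4 (52.9 and 93.6 CPM).

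Replicates 1 and 2 of every group carried library numbers of at most 20 and replicates 3 and 4 numbers of at least 25, whose meaning is not stated. Within replicates 3 and 4 alone, 31 of 32 members rose in female sedentary pain (median log2 5.03), beside 16.2% of all genes, and within replicates 1 and 2 alone 19 did (median 4.09), beside 1.56%. In males the medians were in the opposite order, 3.77 for the first pair of replicates and 1.79 for the other, with no member called by edgeR in either.

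A difference between the sexes did not pass the test for any member. The female change in sedentary pain exceeded the male change in 29 of 32 members (the male values of Clec4e and Marco depend on the prior count), with a median difference of 1.57 on the log2 scale, but 0 members were called (0% of all 15103 genes; smallest member adjusted p = 0.432 by edgeR), 9 had an unadjusted p under 0.05 against 9.57% of all genes, and DESeq2 called 0. The 3 smallest p-values belonged to Nos2, whose log2 difference was 3.03 ± 0.96 (adjusted p = 0.432), Csf1r at 2.45 ± 0.81 (adjusted p = 0.432), and Lyz2 at 2.61 ± 0.93 (adjusted p = 0.434). Among replicates 3 and 4 alone, 19 members were called beside 8.51% of all genes, and 7 were, beside 3.85%, when male sedentary pain replicate 1 and male active pain replicate 2 were both left out; leaving out any 1 library gave 0. The active pain change differed by a median of -0.38, with 0 called (0% of all genes), 0 at an unadjusted p under 0.05 against 2.03%, and 0 by DESeq2. The sex difference of active against sedentary pain had a median of -2.16, 0 called (0% of all genes), 15 at an unadjusted p under 0.05 against 14.7%, and 0 by DESeq2, with the largest at -4.10 ± 1.64 for Marco (adjusted p = 0.278) and -3.62 ± 1.15 for Aif1 (adjusted p = 0.228). Without male sedentary pain replicate 1 it was called for 23 members beside 14.1% of all genes, without female sedentary pain replicate 1 for 6 beside 4.04%, and among replicates 3 and 4 alone for 14 beside 7.71%. Male and female controls did not differ for any member (0 called by both tools, where edgeR called 2.83% of all genes, and none with an unadjusted p under 0.05, which 14.9% of all genes had).

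The partners of the members in the same pathways were read from lists that were written with earlier results of these data known. Of the other colony-stimulating factors and receptors, 3 of 4 tested rose in female sedentary pain, namely the receptor chains Csf3r (5.93 ± 0.90), Csf2ra (3.53 ± 0.60) and Csf2rb (3.07 ± 0.74). Of 10 further myeloid transcription factors 6 rose, among them Irf5 (4.05 ± 0.64) and Runx1 (2.93 ± 0.53), and the other 4 were lower without passing the test (lowest log2 -1.41, and 1 of them with an unadjusted p under 0.05). All 12 genes of ITAM signalling rose in female sedentary pain and all 12 fell in active against sedentary females, and the named rises were those of the adaptor Card9 (3.61 ± 0.51) and the signalling protein Vav1 (4.85 ± 0.74). Of 12 genes of the phagosome oxidase and lysosomal proteases 10 rose and 8 fell in those comparisons; the oxidase subunits Ncf1 and Ncf4 rose by 4.55 ± 0.69 and 5.22 ± 0.82. Medians were 3.30, 1.57, 4.56 and 3.50 for these 4 lists, beside -0.02 for all genes, of which 19.6% rose in female sedentary pain and 9.41% fell in active against sedentary females. As for the members, nearly all calls between active and sedentary females were lost when any of the 5 female pain libraries named above was left out, since at most 3 of all genes then passed. No gene of the 4 lists was called by edgeR against controls in male sedentary pain, female active pain or male active pain. At an unadjusted p under 0.05 the ITAM list had 11 of 11 tested genes in male sedentary pain, 8 of 12 in female active pain and 10 of 11 in male active pain, beside 8.84%, 7.03% and 7.25% of all genes.

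Genes of other cell types changed to differing degrees in female sedentary pain, where 19.6% of all genes rose. Of 5 markers of tissue-resident macrophages 3 were called, with a median log2 difference of 1.56: Mrc1 rose by 1.56 ± 0.25, Folr2 by 1.96 ± 0.48 and Timd4 by 1.89 ± 0.53. None of the 5 changed between active and sedentary females by edgeR, where 11.9% of all genes did. At an unadjusted p under 0.05 there were 2 of them, beside at least those 11.9% of all genes. The summed level of these 5 genes was 22.4 to 41.5 CPM in female controls and 50.2 to 133 CPM in sedentary pain. Of 8 tested neutrophil genes 5 rose, including Cxcr2 (7.26 ± 1.61), S100a9 (5.89 ± 1.57) and Retnlg (4.93 ± 1.31), while the lowest of the 8 was at -1.11, and 0 changed between active and sedentary females, none with an unadjusted p under 0.05. Both tested T and NK cell genes, Cd4 (4.35 ± 0.84) and Nkg7 (5.05 ± 1.11), rose and were lower in active than in sedentary females. The lower call was lost in the 4 of those 5 fits in which no gene passed. Both tested B cell genes, Cd79a (2.65 ± 0.80) and Cd79b (3.47 ± 0.87), rose. The T and NK list held 8 genes and the B cell list 5, and the others failed the low-count filter. In the lowest female control these whole lists summed to 0.0841 and 0.303 CPM. The tested genes therefore passed the filter through the pain libraries, and their rise is no independent support. Of 4 tested dendritic cell genes 1 rose, Flt3 (3.55 ± 0.70), with a list median of 1.05 and a lowest value of -0.06, and 0 of 4 mast cell genes changed (edgeR; 0 with an unadjusted p under 0.05). Plin1 and Adipoq of fat cells fell by 3.04 ± 0.92 and 2.99 ± 0.94, but the summed fat cell genes stood at 58.8, 34.4, 777 and 392 CPM in female controls 1 to 4, against 15.5 to 105 CPM with sedentary pain. Of 3 endothelial genes Cdh5 and Kdr fell by 0.73 ± 0.20 and 0.93 ± 0.28, and the third was at 0.12 and not called. Of 3 fibroblast genes Col1a1 rose by 1.09 ± 0.29 and the others, at -0.0089 (the list median) and -0.44, were not called. None of 5 muscle fibre genes or 2 tested satellite cell genes was called by edgeR, where 33.5% of all genes were. At an unadjusted p under 0.05 there were 2 and 1 of them, beside at least those 33.5% of all genes. Muscle fibre genes summed to between 76113 and 178469 CPM in every library, so the defining genes of the labelled tissue were present throughout.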

How the data were processed

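RNA of the left gastrocnemius muscle was measured by sequencing of 24 stranded libraries, per the labels' protocols. As deposited, each library is a table of whole-number read counts by Ensembl gene, in which no normalization by the authors was found. The submitters' processing notes name HISAT2 2.1.0, Salmon 0.9.1, featureCounts and DESeq2 1.24.0 and the builds mm10 and GRCm38.p6; which tool made the counts, the strand setting and the annotation release are not given in the sources used here.

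Genes were named by identifier. Counts were scaled by TMM, filtered with filterByExpr (minimum count 10) and tested two-sided with the quasi-likelihood method of edgeR 4.0.16 (robust setting, R 4.3.3), each sex on its 12 libraries. Sex differences and controls between sexes used all 24. Benjamini-Hochberg adjustment covered all genes of a fit, with calls at 0.05. CPM carry TMM factors over all 24 libraries, log2 CPM a prior count of 2, and the floor is 3 counts per library, which covers counting error only. An SE is the one implied by the F statistic. Totals of 17612139 to 34039699 counts set the precision. The edgeR step was tested on simulated counts with less spread between libraries than most members had in the pain groups. That test therefore does not show how calls behave at the spread seen here.

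The members and lists were chosen with earlier results of these data known. Values in every library were printed for 22 members named in advance by role, which include the members with the largest and smallest changes, and the others are given by means or ranges; of each further list up to 3 genes with the smallest p are named (some are not reported here), and Laptm5, Mpeg1, Slc11a1 and the receptors Cd86, Cd84, Lilrb4a and Pirb appear as means. Alternatives were RLE scaling, DESeq2 1.42.0, no filter, no robust step, only the compared groups, all 24 libraries, the replicate block, a library-number covariate, 1 surrogate variable (sva 3.50.0), each library left out and, added after seeing the data, replicates 1 and 2 only, replicates 3 and 4 only, and a pair of male libraries left out.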

Additional observations from a re-analysis of the deposited data

Results flagged for a closer look

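Among 183 sets of 4 libraries (a member in a group, with at least 10 counts in its highest library), 8 had a library whose gap to the nearest other exceeded the 95% critical share of the range (Dixon, 4 libraries). Gap and range were taken on log2 CPM, so a set that looks wide in CPM need not be marked. By chance about 1 set in 20 is marked. In male sedentary pain replicate 1 stood apart for Trem2 (14.3 CPM), Clec4d (45.7 CPM) and Msr1 (25.7 CPM). In male active pain replicate 2 stood apart for Csf1 (30.4 CPM), Slc11a1 (12.3 CPM) and Clec4n (15.4 CPM). In the controls, male replicate 1 was low for Adgre1 (1.19 CPM) and female replicate 4 was high for Ms4a6c (2.96 CPM). Members in a library are not independent of one another, so these flags rest on 4 libraries.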

How the results depend on the processing

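The rise of members in female sedentary pain held for at least 31 of 32 in 21 of 23 alternatives; it was 19 in replicates 1 and 2 only and 7 with 1 surrogate variable, and 31 to 32 with each library left out. From sedentary to active females the members called lower were 0 without the low-count filter, 0 with only the compared groups, 0 with 1 surrogate variable, 0 in replicates 1 and 2 only, and 0 to 28 with each library left out; the median log2 value in these 4 settings was -2.62, -2.69, -0.51 and -2.30, and it lay between -2.10 and -2.71 in the fits without 1 library that called 0. Against controls, DESeq2 called 8 members in active females, 16 in sedentary males and 8 in active males, where edgeR called 0; 1 surrogate variable gave 2, 1 and 1 (0.0551%, 0.0347% and 0.0347% of all genes). Replicates 3 and 4 only gave 3 in female active pain (1.01% of all genes), 19 for the sex difference in sedentary pain and 14 for that of active against sedentary pain. With the pair of male libraries left out, 1 member was called in sedentary males (0.0138% of all genes), 2 in active males (0.0553%) and 7 for the sex difference in sedentary pain. The sex difference of active against sedentary pain ranged from 0 to 23 with each library left out. The cause of these shifts was not tested, except that subsets hold fewer libraries.

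Single members changed sign mostly where they were not called. With 1 surrogate variable the log2 values were Nos2 -0.39 in female sedentary pain; Csf1 0.015, Gpnmb 0.078, Clec7a 0.076, Clec4d 0.36 and Clec4e 0.35 from sedentary to active females; Trem2 -0.035, Gpnmb -0.20, Clec7a -0.11 and Nos2 0.063 in male sedentary pain; and Gpnmb -0.20, Clec7a -0.0069 and Nos2 0.28 in male active pain. Replicates 1 and 2 only gave Nos2 -0.75 for sedentary and 0.0028 for active females against controls, and 0.75 between them. Replicates 3 and 4 only gave Clec4n 0.10 from sedentary to active females, Gpnmb -0.024 and Nos2 0.038 in male sedentary pain, and Gpnmb -0.053 and Nos2 0.32 in male active pain. Without the pair of male libraries Nos2 was 0.018 in male active pain, and it ran from -0.10 to 0.13 there with each library left out.

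Replicate numbers recur in every group, and residuals of same-numbered libraries had a mean correlation of 0.103 in females and 0.00654 in males, so the numbers were not taken to pair the muscles. The replicate block gave 31 members in female sedentary pain (25.8% of all genes called) and 25 in active against sedentary females (11.2%), and 0 in the other comparisons, as without it. Depth limits Fcnb, and Marco, Clec4e, Clec4d and Clec4n in controls, to a few counts per library.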
